A study of Mus musculus with 9 samples.

Results

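The genes described here are the integrin chains and the laminin chains of the mouse. They were taken from the GENCODE annotation of GRCm38 by symbol: every protein-coding gene named Itga or Itgb with a number or with v, l, x, d or e, and every Lama, Lamb or Lamc gene with a number, apart from genes left out of the set. Of the 43629 genes counted, 36 entered the set. They comprised 17 integrin alpha chains, 9 integrin beta chains, 5 laminin alpha chains, 3 laminin beta chains and 2 laminin gamma chains. Itgb1bp1, Itgb1bp2, Itgb3bp and Itgbl1 share the prefix but code for no chain and were not counted among them. Enough reads for testing were found for 33 of the 36.

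Poly(A) RNA was sequenced from cultured heart cells of the outbred mouse strain CD-1, taken from embryos of day 13.5. Ventricles were pooled by litter, so that no library stands for 1 embryo, and the cells slow to attach to plastic were grown for 48 h before lipofection with 0.012 pmol of siRNA. The 3 groups of 3 libraries received a pool of 4 siRNAs against DNMT3a, a pool of 4 siRNAs against DNMT3b, or negative control siRNA. After another 72 h the cells were enriched on magnetic columns by VCAM1, itself a ligand of some integrins. DNMT3a and DNMT3b are the enzymes that place new methyl groups on cytosine in DNA.

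An integrin receptor is a pair of 1 alpha and 1 beta chain that spans the cell membrane, holds matrix proteins outside the cell and connects through talin and other adaptors to actin inside it. The pairing decides the ligand: Itgav and Itga5 receptors bind matrix proteins with an arginine-glycine-aspartate motif such as fibronectin, Itga1, Itga2, Itga10 and Itga11 receptors bind collagens, and Itga3, Itga6 and Itga7 receptors bind laminins. Laminins are cross-shaped trimers of 1 alpha, 1 beta and 1 gamma chain that organise the basement membrane, the sheet of matrix that surrounds heart muscle cells, vessels and epicardium.

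Each library had between 27852412 and 35896018 reads counted in genes. Levels of a gene are given as CPM, read counts per library size with TMM scaling between libraries, as mean ± SD over the 3 libraries of a group. Levels of different genes are compared only after division by exon length, as RPKM. Dnmt3a was at 259 ± 23.2 CPM with control siRNA and 46.5 ± 6.32 CPM with DNMT3a siRNA, a log2 fold change of -2.48 ± 0.11 (SE, adjusted p = 3.42e-06). Dnmt3b was at 4.30 ± 0.0372 CPM with control siRNA and 1.70 ± 0.652 CPM with DNMT3b siRNA, a log2 fold change of -1.34 ± 0.23 (adjusted p = 0.00816). Vcam1, the sort marker, averaged 306 ± 47.8 CPM with control siRNA, 229 ± 25.2 CPM with DNMT3a siRNA (-0.42 ± 0.12, adjusted p = 0.0510) and 283 ± 20.6 CPM after DNMT3b siRNA (-0.11 ± 0.12, adjusted p = 0.632). None of 15 cardiomyocyte markers was at 0, and neither was any of 10 fibroblast markers, so transcripts of both cell types were present. Control 2, DNMT3a 2 and, less widely, DNMT3b 1 stood apart from the other libraries of their groups.

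Per length, 1 beta chain made up most of the integrin transcripts. Itgb1, the partner of most alpha chains, was at 558 RPKM in controls, 77.5 ± 0.818% of the RPKM summed over beta chains. Itgb5, which pairs with Itgav, followed at 151 RPKM, while Itgb3 stood at 6.53 RPKM and Itgb8 at 3.14 RPKM. Among alpha chains the highest in controls were Itga3 at 83.8 ± 11.7 RPKM, Itga5 at 72.0 ± 25.6 RPKM, Itgav at 65.4 ± 1.91 RPKM and Itga8 at 44.2 ± 14.5 RPKM. The first 3 lay within the spread of Itga5, so their order in controls is not resolved. Itga7, Itga4, Itga9, Itga6, Itga11 and Itga1 came next, between 21.3 and 4.30 RPKM.

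Among the laminin chains of the set, 1 of each type stood well above the others. Lamc1 was at 178 RPKM in controls. Lamb1 at 82.2 RPKM made up 69.4 ± 2.5% of the beta-chain sum, with Lamb2 at 36.1 RPKM. Lama5 at 77.7 RPKM made up 84.8 ± 3.80% of the alpha-chain sum, ahead of Lama4 at 11.3 RPKM and Lama2 at 1.74 RPKM. Lamc1, Lamb1 and Lama5 remained the highest gamma, beta and alpha chain of the set in all 3 groups. Lama3 and Lamb3, known from epithelial laminin, were at 0.05 and 0.416 RPKM.

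**Figure D1:**
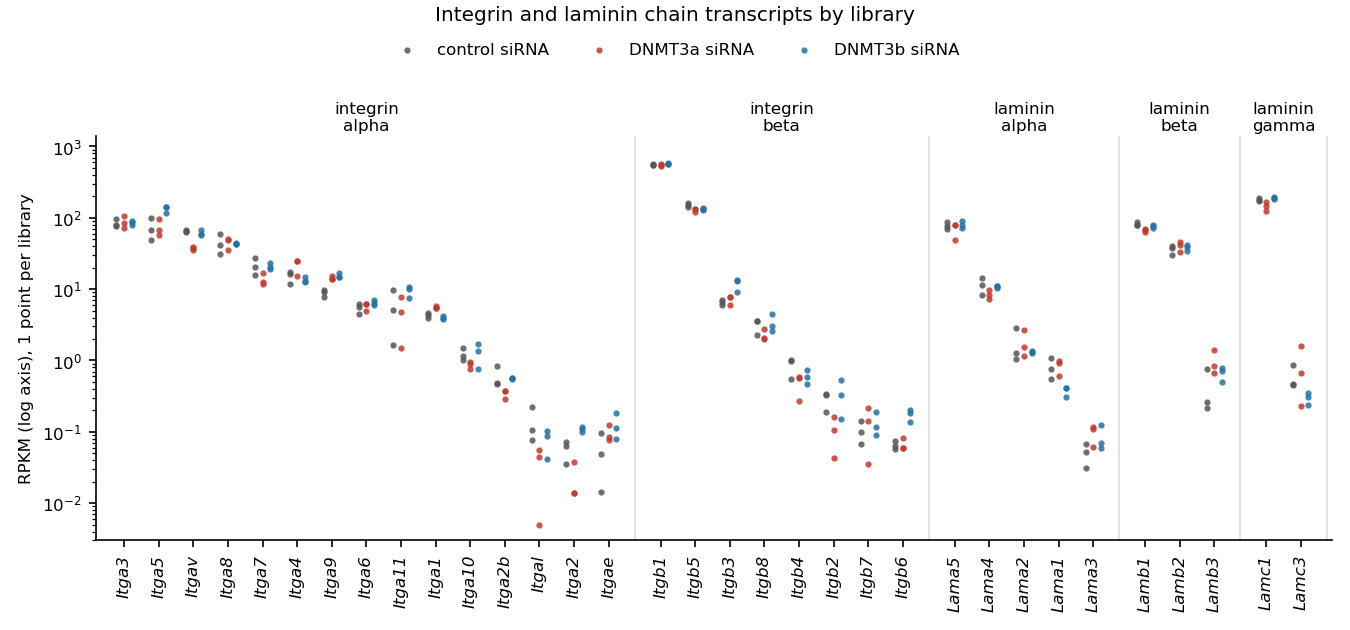
RPKM (log axis) of the 33 tested chains in each of the 9 libraries, grouped by chain type and ordered by the control mean, with 1 point per library coloured by siRNA. Itgb1 lies at 558 RPKM in controls and Lama3 at 0.05 RPKM, and for most genes the points of the 3 groups lie over each other.

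Of the 33 tested chains, 7 changed in at least 1 comparison of the siRNA groups, Itga2 with its low counts among them. The same was not counted over all genes, so this number has no share to stand beside. Shares are given for each comparison. After DNMT3a siRNA 2 were higher than in controls (Itga1, Itga9) and 1 was lower (Itgav), 3 of 33 or 9.09%. Over all 16561 genes tested, 4.87% were higher, 5.22% lower and 10.1% changed. With the library number as a block, described further on, 33.3% of the chains and 14.3% of all genes were called in this comparison. Scaling by library size alone turned the 807 higher and 864 lower genes into 1019 and 649. After DNMT3b siRNA 3 were higher (Itga9, Itgb3, Itgb6) and 1 lower (Lama1), 4 of 33 or 12.1%, beside 3.52% higher, 2.12% lower and 5.64% changed over all genes. Both comparisons use the same control libraries, so their results are not independent.

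Between the knockdowns 6 of 33 chains differed, or 18.2%. Among them Itga2 passed the filter on low counts only through the DNMT3b libraries, where it is high; without it 5 of 32 differed, or 15.6%. Itga1 and Lama1 were higher and Itga2, Itgav, Itgb3 and Itgb6 lower after DNMT3a siRNA than after DNMT3b siRNA. Over all genes 4.47% were higher, 5.08% lower and 9.55% differed. The median log2 fold change of the 23 tested integrin chains in this comparison was -0.55 (-0.46 without Itga2), and that of the 10 laminin chains 0.13, beside 0.01 over all genes. Against controls the medians of the integrin chains were -0.03 after DNMT3a siRNA and 0.05 after DNMT3b siRNA, those of the laminin chains 0.05 and -0.00058, and those of all genes 0.02 and 0.00. All 8 tested beta integrins had a log2 fold change below 0 between the knockdowns, with 2 of them called. Over all 16561 genes, 8530 had one above 0. Those of Itgb1 (-0.064 ± 0.082), Itgb4 (-0.315 ± 0.324), Itgb5 (-0.053 ± 0.080) and Itgb7 (-0.0068 ± 0.57) were smaller than their SE. The groups did not overlap for 2 of the 8, or 25%, beside 32.3% over all genes.

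The 3 libraries of a group lay wholly to 1 side of the other group's for 10 of 33 chains after DNMT3a siRNA against controls (2 above, 8 below), or 30.3%, where the share over all genes was 26.7%. After DNMT3b siRNA this held for 9 (5 above, 4 below), or 27.3%, beside 26.1% over all genes. Between the knockdowns it held for 13 (3 above, 10 below), or 39.4%, beside 32.3%. Itga2, which passed the filter only through the DNMT3b libraries, is among the chains counted in the last 2 comparisons. Without it the counts were 8 of 32, or 25%, after DNMT3b siRNA and 12 of 32, or 37.5%, between the knockdowns.

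**Figure D2:**
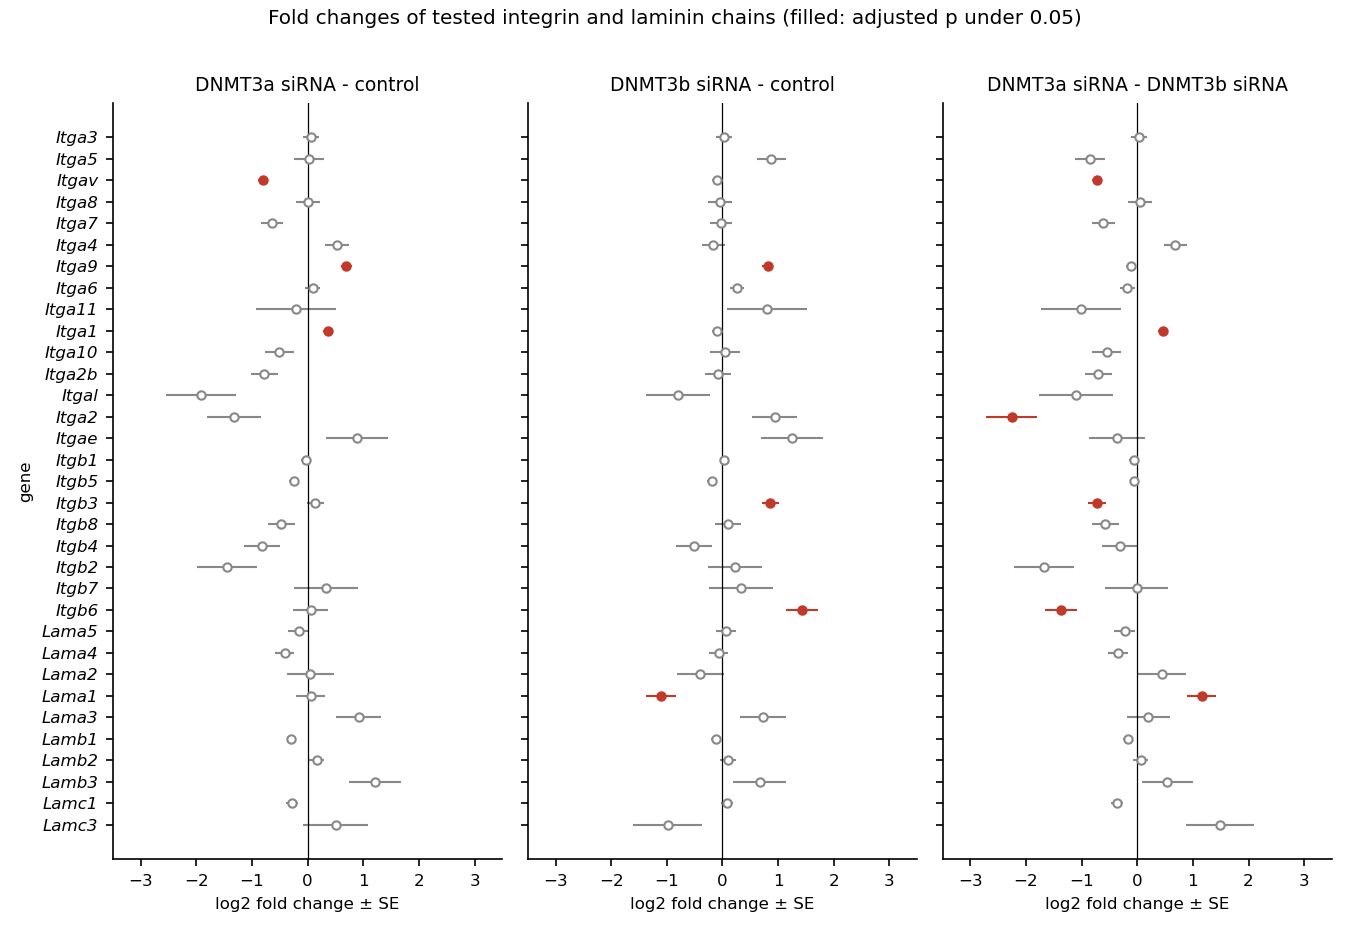
Log2 fold changes ± SE of the 33 tested chains in the 3 comparisons, with genes in the order of chain type and level and filled red points for an adjusted p under 0.05. Red points number 3 for DNMT3a siRNA against control, 4 for DNMT3b siRNA against control and 6 for DNMT3a siRNA against DNMT3b siRNA.

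Itgav, the alpha chain of the vitronectin-type receptors, was the chain with the smallest adjusted p after DNMT3a siRNA. It lies on the plus strand at chr2:83724397-83806916 (GRCm38, ENSMUSG00000027087). The control libraries read 702, 683 and 724 CPM, the DNMT3a libraries 406, 375 and 421 CPM, and the DNMT3b libraries 726, 641 and 613 CPM. All DNMT3a libraries lay far below the other 6, and the DNMT3b libraries overlapped the controls. Itgav fell by 0.81 ± 0.09 on the log2 scale after DNMT3a siRNA (adjusted p = 4.32e-04), to 57.0% of the control level. After DNMT3b siRNA the log2 fold change was -0.09 ± 0.09 (adjusted p = 0.597). The knockdowns themselves differed by -0.72 ± 0.09 (adjusted p = 0.00136). Both calls held in each of the 18 alternative fits. Of the exon bases of Itgav, 5.90% are shared with Gm13684 on the other strand, and reads there cannot be assigned without strand.

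The 250 bases before the start sites of Itgav, Itga1 and Itga2 are printed because the enzymes knocked down act on cytosine followed by guanine (CpG), and because these 3 alpha chains differed between the knockdowns. The RefSeq start (GRCm38.p6) of each coincides with the start of the GENCODE gene. Capitals mark each CpG, the motif CG, which reads the same on both strands. Methylation was not measured in these libraries.
The windows are chr2:83724147-83724396 on the plus strand for Itgav, and chr13:115101965-115102214 and chr13:114932101-114932350 on the minus strand for Itga1 and Itga2.
Itgav: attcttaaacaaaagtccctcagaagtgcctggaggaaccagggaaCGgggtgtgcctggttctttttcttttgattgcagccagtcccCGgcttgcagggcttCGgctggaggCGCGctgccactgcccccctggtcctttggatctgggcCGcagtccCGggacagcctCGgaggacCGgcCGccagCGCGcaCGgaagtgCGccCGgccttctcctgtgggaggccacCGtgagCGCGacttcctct
Itga1: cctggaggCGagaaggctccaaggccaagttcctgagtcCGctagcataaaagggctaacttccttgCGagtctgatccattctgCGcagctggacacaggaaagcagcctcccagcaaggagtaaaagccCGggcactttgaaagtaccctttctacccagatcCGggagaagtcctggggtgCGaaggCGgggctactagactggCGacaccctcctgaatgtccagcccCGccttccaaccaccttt
Itga2: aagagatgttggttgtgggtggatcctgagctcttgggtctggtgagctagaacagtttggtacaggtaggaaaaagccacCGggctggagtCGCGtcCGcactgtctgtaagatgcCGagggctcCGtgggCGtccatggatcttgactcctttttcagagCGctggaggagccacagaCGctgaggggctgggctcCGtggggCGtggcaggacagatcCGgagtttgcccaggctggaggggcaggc
The Itgav window holds 18 CpGs, that of Itga1 10 and that of Itga2 12. Of the 32851 promoter windows of this length in the RefSeq table, 21.7% hold 18 or more, 37.8% hold 10 or more and 33.5% hold 12 or more, and the median of all is 6. Read in this way, without the chromosome of Lama3, the table had windows for 23 of the 36 chains (26 windows). They had a median of 10 CpGs and a range of 0 to 22. The count is a description of these bases and was related to no fold change.

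Of the beta chains that pair with Itgav, Itgb3 and Itgb6 rose after DNMT3b siRNA, and Itgb1, Itgb5 and Itgb8 were not called. Itgb3, which also forms the platelet receptor with Itga2b, read 35.0, 39.5 and 41.0 CPM in the controls, 45.7, 35.0 and 46.5 CPM after DNMT3a siRNA, and 54.2, 79.2 and 76.7 CPM after DNMT3b siRNA. Every DNMT3b library lay above the other 6, with DNMT3b 1 the nearest to them. Itgb3 (chr11:104608000-104670476, plus strand, ENSMUSG00000020689) rose by 0.86 ± 0.15 on the log2 scale after DNMT3b siRNA, 1.82-fold (adjusted p = 0.00989). Its log2 fold change after DNMT3a siRNA was 0.14 ± 0.15 (adjusted p = 0.645), and the knockdowns differed by -0.72 ± 0.15 (adjusted p = 0.0168). Without DNMT3b 3 the rise gave an adjusted p of 0.0639, in a range from 2.21e-05 to 0.0639 over its alternatives. The difference between knockdowns was not called without DNMT3b 2 (0.0786), without DNMT3b 3 (0.0767) or without the 3 libraries numbered 2 (0.0943), in a range from 3.53e-04 to 0.0943.

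Itgb6, an activator of latent TGF-beta best known from epithelia, was close to the limit of detection. It had 11 to 16 counts per control library and 28 to 47 per DNMT3b library. Its levels were 0.446, 0.520 and 0.407 CPM in the controls, 0.422, 0.424 and 0.589 CPM after DNMT3a siRNA, and 1.44, 1.29 and 0.981 CPM after DNMT3b siRNA. The DNMT3b libraries were again the high ones, without overlap. The log2 fold change was 1.43 ± 0.29 after DNMT3b siRNA (adjusted p = 0.0168), 0.06 ± 0.31 after DNMT3a siRNA (adjusted p = 0.940) and -1.37 ± 0.29 between the knockdowns (adjusted p = 0.0158). The rise was not called without control 1 (0.0654), control 3 (0.0722), DNMT3b 2 (0.0758) or the libraries numbered 2 (0.0688), in a range from 0.00871 to 0.0758. The difference between knockdowns was not called without DNMT3a 1 (0.0724), DNMT3b 2 (0.0714) or the libraries numbered 2 (0.0949), in a range from 0.00802 to 0.0949. The filter of 1 CPM in 3 libraries left Itgb6 out, so each range covers 17 alternatives.

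Itgb5, the abundant partner of Itgav, read 511, 533 and 570 CPM in the controls, 467, 426 and 465 CPM after DNMT3a siRNA and 450, 477 and 481 CPM after DNMT3b siRNA. Both knockdown groups lay below all controls, but the log2 fold changes of -0.25 ± 0.08 (adjusted p = 0.0754) and -0.20 ± 0.08 (adjusted p = 0.181) did not pass. Itgb8, another TGF-beta activator, was at 34.7 ± 8.11, 25 ± 4.38 and 37.2 ± 11.0 CPM in controls and after DNMT3a and DNMT3b siRNA, with overlapping groups. Itgb1 hardly differed between any of the 9 libraries, which ran from 2188 to 2360 CPM. Its log2 fold change was -0.03 ± 0.08 after DNMT3a siRNA (adjusted p = 0.870), 0.03 ± 0.08 after DNMT3b siRNA (adjusted p = 0.859) and -0.06 ± 0.08 between the knockdowns (adjusted p = 0.671).

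Itga5, the alpha chain of the main fibronectin receptor, had a wide gap between the knockdowns, but its controls were spread. They read 242, 492 and 333 CPM, the DNMT3a libraries 280, 470 and 334 CPM, and the DNMT3b libraries 574, 695 and 691 CPM. All DNMT3b libraries were above the other 6, and in both other groups library 2 was the highest. The log2 fold change after DNMT3b siRNA was 0.88 ± 0.27 (adjusted p = 0.0972) and after DNMT3a siRNA 0.02 ± 0.27 (adjusted p = 0.971), and between the knockdowns it was -0.85 ± 0.27 (adjusted p = 0.0853). Without control 2 the adjusted p after DNMT3b siRNA was 0.0149, and without the libraries numbered 2 it was 0.00954, in a range from 0.00143 to 0.285. The share of Itga5 in the RPKM summed over alpha chains was 21.6 ± 5.23% in controls, 23.7 ± 6.37% after DNMT3a siRNA and 33.5 ± 2.71% after DNMT3b siRNA, where Itga5 in place of Itga3 was the highest alpha chain.

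Itga8, a receptor chain for nephronectin, averaged 326 ± 107, 327 ± 60.7 and 317 ± 5.51 CPM in the 3 groups. Itga2b, the platelet alpha chain, read 2.59, 4.52 and 2.66 CPM in the controls, 1.59, 2.06 and 2.03 CPM after DNMT3a siRNA and 3.01, 3.14 and 3.08 CPM after DNMT3b siRNA. Its DNMT3a libraries were below all others, with a log2 fold change against controls of -0.78 ± 0.24 (adjusted p = 0.0662). The 8 platelet markers, 3 of which were tested and 1 of which was at 0 in every library, summed to 2.93 to 3.88 CPM over the controls and to 3.27 to 4.22 CPM over the DNMT3a libraries. Their part in the values of Itga2b was not tested.

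Itga9 was higher after both knockdowns. Its receptor with Itgb1 binds tenascin C and VCAM1. The controls read 59.4, 75.4 and 69.1 CPM, the DNMT3a libraries 107, 116 and 106 CPM and the DNMT3b libraries 115, 115 and 128 CPM. Both knockdown groups lay above all controls and overlapped each other. Itga9 (chr9:118606690-118901003, plus strand, ENSMUSG00000039115) rose by 0.69 ± 0.09 on the log2 scale after DNMT3a siRNA (adjusted p = 0.00149), 1.62-fold, and by 0.81 ± 0.10 after DNMT3b siRNA (adjusted p = 9.45e-04), 1.75-fold. The knockdowns differed by -0.12 ± 0.09 (adjusted p = 0.476). Both rises held in each of the 18 alternative fits.

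Marker genes of heart muscle moved in the same direction as Itga9. The 15 cardiomyocyte markers summed to 2530 to 3339 CPM in the controls, 6043 to 7689 CPM after DNMT3a siRNA and 7482 to 8927 CPM after DNMT3b siRNA. Of these markers, 12 after DNMT3a siRNA and 14 after DNMT3b siRNA had all 3 libraries above every control, as did 14.1% and 13.8% of all genes. The sum of the 11 epicardial markers was lower, at 2276 to 2702 CPM in controls, 1603 to 2117 CPM after DNMT3a siRNA and 1627 to 2250 CPM after DNMT3b siRNA, but its members differed in direction. After DNMT3a siRNA Msln, Upk1b and Aldh1a2 were called lower and Tbx18 and Krt18 higher, and after DNMT3b siRNA Upk3b was called lower and Krt18 higher. The sum of the 11 endothelial and endocardial markers was 355 to 401 CPM in controls and 394 to 437 CPM after DNMT3b siRNA. In that comparison 6 of the 11 lay above all controls and 1 below (63.6%, beside 26.1% over all genes). Kdr alone was called, higher. After DNMT3a siRNA the sum was 363 to 372 CPM. Of the 11 smooth muscle and pericyte markers, 3 after DNMT3a siRNA and 4 after DNMT3b siRNA lay above all controls, with none called. The part of all these markers in the results for Itga9, Itgav and the other chains was not tested. In bulk RNA fewer cells of a type and less RNA per cell cannot be told apart.

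Itga4, like Itga9 a receptor chain for VCAM1 and fibronectin, read 225, 163 and 244 CPM in the controls, 350, 211 and 349 CPM after DNMT3a siRNA and 210, 175 and 180 CPM after DNMT3b siRNA. Library 2 was the lowest of each group, and DNMT3a 2 fell among the controls. The log2 fold changes of 0.53 ± 0.21 after DNMT3a siRNA (adjusted p = 0.156) and 0.69 ± 0.21 between the knockdowns (adjusted p = 0.0752) did not pass. Of its exon bases, 8.04% are shared with Cerkl on the opposite strand.

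The 4 collagen-receptor alpha chains did not move as a group. Itga1 (chr13:114953096-115101964, minus strand, ENSMUSG00000042284), which with Itgb1 binds collagen of basement membranes, read 72.3, 87.4 and 80.4 CPM in the controls, 99.8, 101 and 107 CPM after DNMT3a siRNA and 70.5, 73.9 and 79.1 CPM after DNMT3b siRNA. The DNMT3a libraries were the highest 3 of the 9, and the other groups overlapped. Itga1 rose by 0.36 ± 0.09 on the log2 scale after DNMT3a siRNA (adjusted p = 0.0246), 1.28-fold, had a log2 fold change of -0.10 ± 0.09 after DNMT3b siRNA (adjusted p = 0.534), and was higher by 0.46 ± 0.09 after DNMT3a than after DNMT3b siRNA (adjusted p = 0.00961). The difference between knockdowns held in all 18 alternatives, with adjusted p up to 0.0499. The rise against controls did not hold in 7 of 18, in a range from 0.00735 to 0.0836: with only the 2 groups compared (0.0742), or without control 1 (0.0790), control 3 (0.0697), DNMT3a 1 (0.0626), DNMT3a 2 (0.0512), DNMT3a 3 (0.0836) or DNMT3b 3 (0.0503). Gm49395 shares 3.68% of its exon bases.

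Itga2, a receptor chain for fibrillar collagen, lies 20995 bases from Itga1 on the same strand (chr13:114833081-114932100) and showed the opposite order of the knockdowns. Its counts were low, 9 to 16 per control library, 3 to 9 after DNMT3a siRNA and 20 to 26 after DNMT3b siRNA, and it passed the filter on low counts only through the DNMT3b libraries. The levels were 0.251, 0.520 and 0.444 CPM in the controls, 0.0974, 0.273 and 0.0981 CPM after DNMT3a siRNA and 0.769, 0.841 and 0.701 CPM after DNMT3b siRNA. The DNMT3b libraries were above all others. Between the knockdowns the log2 fold change was -2.26 ± 0.45 (adjusted p = 0.0129). Against controls it was -1.32 ± 0.48 after DNMT3a siRNA (adjusted p = 0.117) and 0.94 ± 0.40 after DNMT3b siRNA (adjusted p = 0.204). The difference between knockdowns was not called without DNMT3a 1 (0.0623), DNMT3a 3 (0.0562) or DNMT3b 2 (0.0573), in a range from 0.00135 to 0.0623 over 16 alternatives. In the other two it had no adjusted p: the filter of 1 CPM in 3 libraries left it out, and DESeq2 gave none.

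Itga11, the fibrillar-collagen receptor chain of fibroblasts, read 25.9, 8.55 and 49.3 CPM in the controls, 24.4, 7.58 and 40.4 CPM after DNMT3a siRNA and 39.0, 50.9 and 55.5 CPM after DNMT3b siRNA. In the first 2 groups library 2 was the lowest and library 3 the highest, and no comparison passed, with log2 fold changes against controls of -0.21 ± 0.72 (adjusted p = 0.904) and 0.80 ± 0.71 (adjusted p = 0.576). The 10 fibroblast markers summed to 37771 to 57400 CPM in the controls, 38699 to 42474 CPM after DNMT3a siRNA and 36495 to 43290 CPM after DNMT3b siRNA. Of these 10 markers, 4 were called lower after DNMT3a siRNA (Pdgfra, Dcn, Tcf21, Fbln1; median log2 fold change of the list -0.36) and 3 after DNMT3b siRNA (Dcn, Tcf21, Ddr2; median -0.42), and none higher. Over all genes 5.22% and 2.12% were called lower in the same order. The part of these markers in the values of Itga11 was not tested. Itga10, a collagen receptor chain known from cartilage, averaged 6.41 ± 1.29, 4.51 ± 0.467 and 6.62 ± 2.54 CPM. Gm42957 on the same strand shares 33.5% of its exon bases, so its level is uncertain.

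**Figure D3:**
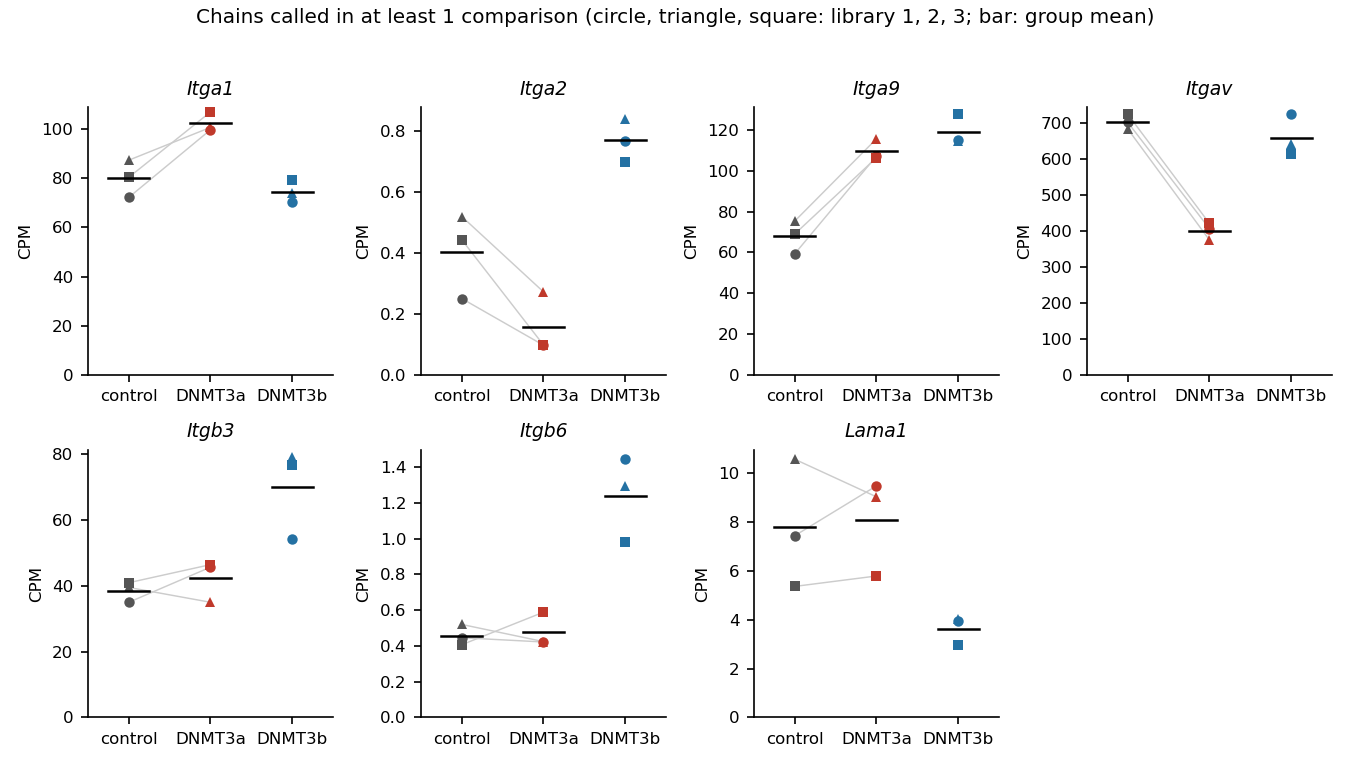
CPM of the 7 chains called in at least 1 comparison, by siRNA group (control, DNMT3a, DNMT3b), with circles, triangles and squares for libraries 1, 2 and 3, bars for group means and grey lines joining the control and the DNMT3a library with 1 number. Itgav is low only in the 3 DNMT3a libraries (375 to 421 CPM), and Itga9 is above the controls in both knockdowns.

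The laminin-receptor alpha chains Itga3, Itga6 and Itga7 did not pass the test. Itga3, a receptor chain for Lama5 and Lama3 laminins, averaged 478 ± 67.0, 500 ± 106 and 489 ± 34.4 CPM in controls and after DNMT3a and DNMT3b siRNA. Itga6 averaged 49.3 ± 8.05, 52.4 ± 6.80 and 59.2 ± 4.87 CPM, with log2 fold changes of 0.09 ± 0.13 after DNMT3a siRNA (adjusted p = 0.753), 0.26 ± 0.13 after DNMT3b siRNA (adjusted p = 0.284) and -0.18 ± 0.13 between the knockdowns (adjusted p = 0.445). The groups of both genes overlapped in all comparisons.

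Itga7, the laminin receptor chain of striated muscle, read 128, 224 and 166 CPM in the controls, 94.1, 101 and 137 CPM after DNMT3a siRNA and 154, 187 and 167 CPM after DNMT3b siRNA. The DNMT3a libraries were lower than the DNMT3b libraries throughout but overlapped the controls. Its log2 fold changes were -0.64 ± 0.21 after DNMT3a siRNA (adjusted p = 0.0865), -0.03 ± 0.20 after DNMT3b siRNA (adjusted p = 0.959) and -0.61 ± 0.21 between the knockdowns (adjusted p = 0.100). This direction after DNMT3a siRNA is opposite to that of the summed cardiomyocyte markers, whose part in the values of Itga7 was not tested. Itgb4, which pairs with Itga6 in epithelial anchoring junctions, averaged 5.94 ± 1.82, 3.34 ± 1.24 and 4.16 ± 0.939 CPM with overlapping groups.

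The integrin chains of leukocytes were near the limit of detection. Itgal, the alpha chain of the lymphocyte receptor for ICAM proteins, had 18 to 45 counts per control library, 1 to 12 after DNMT3a siRNA and 9 to 19 after DNMT3b siRNA. Itgb2, its partner, read 0.585, 1.01 and 1.04 CPM in the controls, 0.130, 0.485 and 0.327 CPM after DNMT3a siRNA and 0.461, 1.00 and 1.61 CPM after DNMT3b siRNA. For both genes every DNMT3a library was below every control, and the DNMT3b libraries overlapped the controls. The log2 fold changes after DNMT3a siRNA were -1.91 ± 0.63 for Itgal (adjusted p = 0.0853) and -1.45 ± 0.54 for Itgb2 (adjusted p = 0.120).

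The 15 macrophage and leukocyte markers, none at 0, moved alongside, at 25.4 to 70.1 CPM summed in controls, 9.38 to 20.9 CPM after DNMT3a siRNA and 22.8 to 55.0 CPM after DNMT3b siRNA. Of them 7 had all DNMT3a libraries below all controls, as did 12.6% of all genes, and none had all above. Their part in the values of Itgal and Itgb2 was not tested. Itgae and Itgb7, which together form the receptor of lymphocytes in epithelia, had 2 to 24 and 3 to 18 counts per library and overlapping groups. Itgax had 1 to 9 counts per library, Itgad 1 to 14 and Itgb2l 0 to 3, and these 3 were below the filter.

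Among the laminin alpha chains Lama1 was the single call. Lama1, the alpha chain of early embryonic basement membranes, lies at chr17:67697259-67822647 on the plus strand. It read 7.44, 10.6 and 5.36 CPM in the controls, 9.48, 9.03 and 5.79 CPM after DNMT3a siRNA and 3.93, 4.01 and 2.94 CPM after DNMT3b siRNA. All DNMT3b libraries were below the other 6, with control 3 the nearest. Lama1 fell by 1.10 ± 0.27 on the log2 scale after DNMT3b siRNA, 2.14-fold (adjusted p = 0.0382), had a log2 fold change of 0.05 ± 0.26 after DNMT3a siRNA (adjusted p = 0.931), and was higher by 1.16 ± 0.27 after DNMT3a than after DNMT3b siRNA (adjusted p = 0.0241).

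The fall of Lama1 was not called by limma-voom (adjusted p = 0.0644), or without control 1 (0.0842), control 2 (0.0565), DNMT3b 1 (0.0720), DNMT3b 2 (0.109), DNMT3b 3 (0.165) or the libraries numbered 2 (0.0994), in a range from 0.00155 to 0.165. The difference between knockdowns was not called without DNMT3a 1 (0.0934), DNMT3a 2 (0.0527), DNMT3b 1 (0.0593), DNMT3b 2 (0.0756) or DNMT3b 3 (0.105), in a range from 7.14e-04 to 0.105. The sum of the 9 Schwann and neural markers was lower after DNMT3b siRNA, at 46.6 to 68.5 CPM. Controls had 73.9 to 133 CPM and DNMT3a libraries 108 to 135 CPM. Of the 4 tested, none was called against controls and 2 had a positive log2 fold change after DNMT3b siRNA. Between the knockdowns 1 of the 4, Tubb3, was called, higher after DNMT3a siRNA. Their part in the values of Lama1 was not tested.

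Lama5, the alpha chain found in most basement membranes, read 862, 791 and 1000 CPM in the controls, 902, 551 and 917 CPM after DNMT3a siRNA and 825, 1036 and 913 CPM after DNMT3b siRNA, and the groups overlapped. Lama4, the alpha chain of blood vessel walls, averaged 137 ± 35.7, 103 ± 15.3 and 131 ± 5.65 CPM. Its log2 fold changes were -0.41 ± 0.17 after DNMT3a siRNA (adjusted p = 0.172), -0.06 ± 0.17 after DNMT3b siRNA (adjusted p = 0.872) and -0.35 ± 0.17 between the knockdowns (adjusted p = 0.243). Lama2, the alpha chain around mature muscle fibres, stood high in control 3 (46.9 CPM) and DNMT3a 3 (43.8 CPM) and between 17.2 and 24.9 CPM in the other 7 libraries. It gave log2 fold changes of 0.04 ± 0.42 (adjusted p = 0.968), -0.40 ± 0.43 (adjusted p = 0.646) and 0.44 ± 0.43 (adjusted p = 0.566) in the same order. Lama3 had 9 to 42 counts per library and averaged 0.537 ± 0.196, 1.03 ± 0.331 and 0.907 ± 0.371 CPM with overlapping groups.

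The laminin beta chains did not pass the test. Lamb1, the main 1 of the 3, read 794, 795 and 856 CPM in the controls, 674, 621 and 698 CPM after DNMT3a siRNA and 766, 775 and 702 CPM after DNMT3b siRNA. Both knockdown groups lay below the controls without overlap, the DNMT3a libraries lowest. The log2 fold change after DNMT3a siRNA was -0.29 ± 0.08 with an adjusted p of 0.0511, and it passed in 5 of 18 alternatives, in a range from 0.00264 to 0.156. It was -0.12 ± 0.08 after DNMT3b siRNA (adjusted p = 0.432) and -0.17 ± 0.08 between the knockdowns (adjusted p = 0.239). Lamb2, the beta chain of muscle and nerve contacts, averaged 219 ± 30.2, 246 ± 40.2 and 235 ± 24.0 CPM. Lamb3, the epithelial beta chain, averaged 2.75 ± 2.02, 6.36 ± 2.46 and 4.38 ± 0.963 CPM. The groups of both overlapped.

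Lamc1 (chr1:153218922-153332786, minus strand), the gamma chain of most laminins, did not pass the test. It read 1401, 1467 and 1547 CPM in the controls, 1221, 1042 and 1357 CPM after DNMT3a siRNA and 1525, 1602 and 1544 CPM after DNMT3b siRNA. The DNMT3a libraries were the lowest 3 of the 9. Its log2 fold changes were -0.29 ± 0.11 after DNMT3a siRNA (adjusted p = 0.117), 0.08 ± 0.11 after DNMT3b siRNA (adjusted p = 0.705) and -0.37 ± 0.11 between the knockdowns (adjusted p = 0.0524). The last passed in 7 of 18 alternatives, in a range from 0.00630 to 0.171. Lamc3, a gamma chain known from nerve and retina, ranged from 1.39 to 9.65 CPM after DNMT3a siRNA, from 2.73 to 5.18 CPM in controls and from 1.44 to 2.10 CPM after DNMT3b siRNA, and was not called.

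DNMT3a libraries and the controls with which they share a number deviated from their group means together, and with the number as a block 11 of the 33 chains were called after DNMT3a siRNA in place of 3, or 33.3%, beside 14.3% over all genes in the same fit. The 3 calls given above remained. The 8 added were Itga4 and Lamb3, higher, and Itga2b, Itga7, Itgal, Itgb2, Lama4 and Lamb1, lower. In each the DNMT3a library lay on that side of the control of the same number in 3 of 3 pairs. That is no separate support, since the fit that called them uses these pairs. Among the chains not called in that fit, Itga10, Itga11, Itgb5, Lamc1 and others also lay to 1 side in 3 of 3 pairs. Itga4 differed by 0.51 ± 0.12 (adjusted p = 0.0167, and between 0.0186 and 0.377 without the block when single libraries were left out). Itga7 differed by -0.62 ± 0.16 (adjusted p = 0.0321, with a range over its alternatives from 0.0109 to 0.328), and Lama4 by -0.40 ± 0.11 (adjusted p = 0.0306, with a range from 0.0258 to 0.411). Lamb1 gave an adjusted p of 0.0492, Lamb3 of 0.0243 and Itga2b of 0.0382. For Lamb3 the leave-out fits ran from 0.00480 to 0.353, and for Itga2b from 0.0539 to 0.207. The leukocyte chains Itgal (-1.98 ± 0.44, adjusted p = 0.0132) and Itgb2 (-1.52 ± 0.37, adjusted p = 0.0214) were among the 8, beside leave-out ranges from 0.0672 to 0.220 and from 0.0833 to 0.315. What a number marks is not stated.

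**Figure D4:**
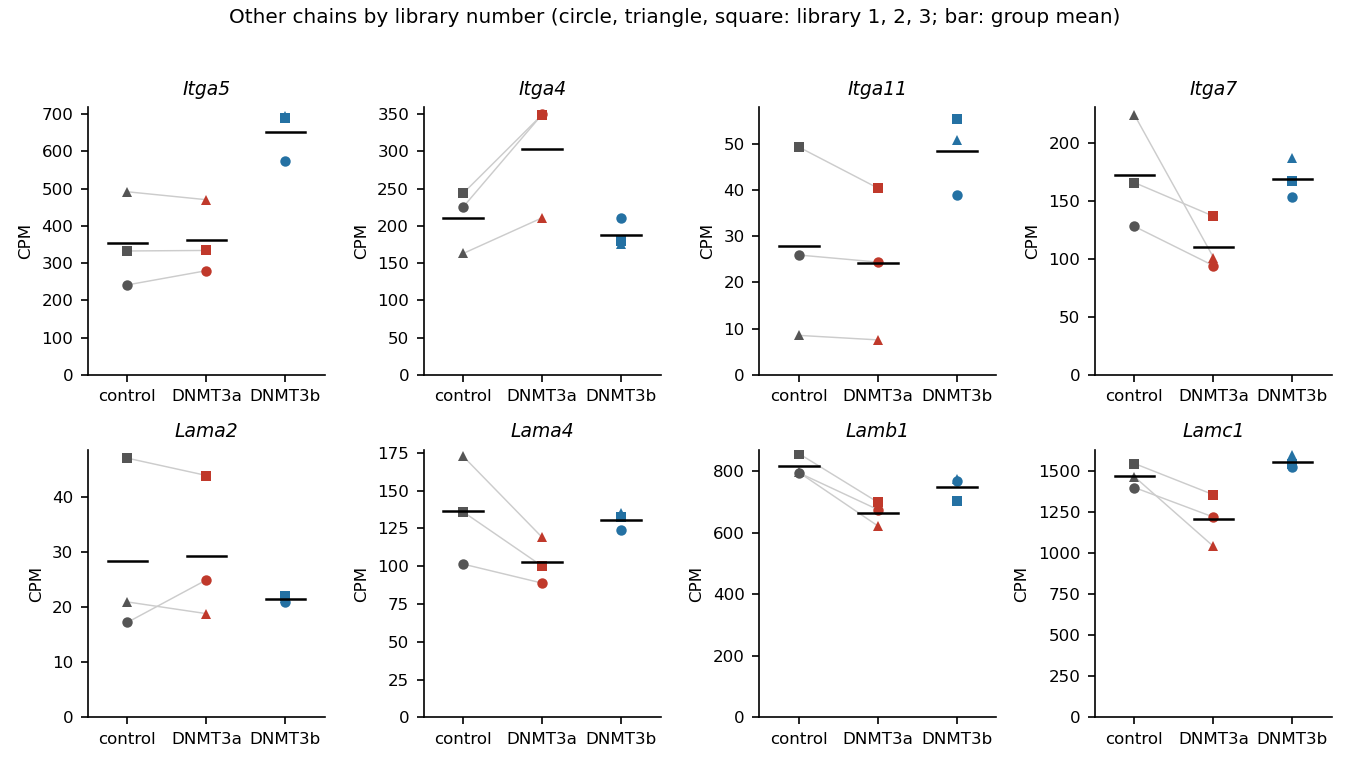
CPM of 8 further chains by siRNA group, with circles, triangles and squares for libraries 1, 2 and 3, bars for group means and grey lines joining the control and the DNMT3a library with 1 number. For Itga5, Itga4, Itga11 and Lama2 the order of the libraries in controls nearly repeats after DNMT3a siRNA, and Itga7, Lama4, Lamb1 and Lamc1 are lower in each DNMT3a library than in the control joined to it.

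The cytoplasmic partners of integrins, 48 tested adaptor and signalling genes, gave 5 higher and 4 lower after DNMT3a siRNA (18.8%), 3 after DNMT3b siRNA, all higher (6.25%), and 4 higher and 3 lower between the knockdowns (14.6%), beside 10.1%, 5.64% and 9.55% over all genes. Their median log2 fold changes were 0.00, -0.05 and 0.03. The talins, which switch integrins on, went separate ways after DNMT3a siRNA: Tln2 rose from 78.7 ± 9.52 to 123 ± 11.9 CPM (0.64 ± 0.11, adjusted p = 0.00546) and Tln1 fell from 1460.5 ± 192 to 929 ± 113 CPM (-0.65 ± 0.12, adjusted p = 0.00702). Paxillin (Pxn), a scaffold of focal adhesions, fell from 134 ± 16.7 to 78.3 ± 8.75 CPM (-0.78 ± 0.11, adjusted p = 0.00145), and Lpp, an actin-linked adhesion protein, by 0.68 ± 0.10 on the log2 scale (adjusted p = 0.00199). After DNMT3b siRNA the parvin Parvb (0.91 ± 0.15, adjusted p = 0.00592) and the muscle integrin-binding protein Itgb1bp2, or melusin (1.57 ± 0.27, adjusted p = 0.00698), rose. Arhgef7, a guanine exchange factor at adhesions, rose after both (0.50 ± 0.07, adjusted p = 0.00185, and 0.43 ± 0.07, adjusted p = 0.00592). Pxn, Lpp, Tgfb1i1 and the LIM protein Lims2 led the differences between the knockdowns, Pxn and Lpp lower and the other pair higher after DNMT3a siRNA. Tln1 was named after its values were seen.

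Of 44 tested basement membrane partners and other laminin receptors, 6 were higher and 4 lower after DNMT3a siRNA, 8 higher and 2 lower after DNMT3b siRNA (22.7% in each), and 2 higher and 6 lower between the knockdowns (18.2%). Over all genes 10.1%, 5.64% and 9.55% were called in the same order. The medians of the list were -0.02, -0.04 and -0.04. Frem2, a large basement membrane protein, rose from 19.9 ± 2.65 CPM to 40.4 ± 5.41 CPM after DNMT3a siRNA (1.02 ± 0.13, adjusted p = 8.99e-04) and to 82.4 ± 7.72 CPM after DNMT3b siRNA (2.05 ± 0.13, adjusted p = 5.69e-05). Bcam, a receptor for Lama5, rose by 0.79 ± 0.12 after DNMT3a siRNA (adjusted p = 0.00219) and by 0.61 ± 0.12 after DNMT3b siRNA (adjusted p = 0.0122). After DNMT3a siRNA Frem1 and the syndecan Sdc1 fell by 1.14 ± 0.14 (adjusted p = 6.78e-04) and by 1.05 ± 0.11 (adjusted p = 3.46e-04). The collagen chain Col4a3 was at 0.633 RPKM in controls. It rose by 1.40 ± 0.21 after DNMT3a siRNA (adjusted p = 0.00270) and by 1.92 ± 0.21 after DNMT3b siRNA (adjusted p = 8.02e-04). Col4a4, at 0.958 RPKM, was also called higher after both knockdowns. Col4a1, at 919 RPKM in controls, fell by 0.62 ± 0.12 after DNMT3a siRNA (adjusted p = 0.00824). After DNMT3b siRNA its log2 fold change was -0.08 ± 0.12 (adjusted p = 0.735). Col4a2, at 752 RPKM, was not called. Col4a1, Col4a2 and Col4a4 were named after their values were seen. The syndecan Sdc4 rose by 0.70 ± 0.11 after DNMT3b siRNA (adjusted p = 0.00504). Cd151, the tetraspanin that accompanies laminin-binding integrins, fell by 0.80 ± 0.11 after DNMT3b siRNA (adjusted p = 0.00254). Sdc1, Sdc4 and Frem2 were lower and Cd151 higher after DNMT3a than after DNMT3b siRNA.

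The list of integrin ligands outside the laminins had 37 tested genes, among them the cell-surface receptors Nrp1 and Lrp1. Of the 37, 2 were higher and 5 lower after DNMT3a siRNA (18.9%), and 4 higher and 1 lower after DNMT3b siRNA (13.5%). Between the knockdowns 8 differed, all lower after DNMT3a siRNA (21.6%). Over all genes the shares called were 10.1%, 5.64% and 9.55%. The medians of the list were -0.12, 0.08 and -0.14. After DNMT3a siRNA the metalloprotease Adam9 fell from 628 ± 85.1 to 357 ± 18.8 CPM (-0.82 ± 0.10, adjusted p = 9.10e-04), Tgfb1 by 0.61 ± 0.10 (adjusted p = 0.00392) and urokinase, Plau, by 0.84 ± 0.15 (adjusted p = 0.00535), and Nrp1 rose by 1.08 ± 0.14 (adjusted p = 9.10e-04). After DNMT3b siRNA Thbs4 (1.79 ± 0.33, adjusted p = 0.0163), Nrp1 (0.62 ± 0.13, adjusted p = 0.0216) and the matricellular Ccn2 (0.60 ± 0.13, adjusted p = 0.0211) rose, and fibrillin, Fbn1, fell by 0.47 ± 0.10 (adjusted p = 0.0238), as it did after DNMT3a siRNA, by 0.58 ± 0.10 (adjusted p = 0.00670). Thbs1, Plau, Tgfb1 and Adam9 were lower after DNMT3a than after DNMT3b siRNA. Fn1, the fibronectin ligand of Itga5, was not called, at 21764 ± 1454 CPM in controls (-0.28 ± 0.16 after DNMT3b siRNA, adjusted p = 0.347), and was named after its values were seen.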

How the data were processed

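The authors deposited 1 table of whole-number read counts per library for 43629 genes, not normalised, per the file headers and values. The submitters' processing notes name FastQC, TopHat2, HTSeq and the mm10/GRCm38 build; for the annotation release and the strand setting, the sources used here give nothing. The 5 summary lines of each table, 49.2% to 56.2% of its total, were left out. Reads that were not unique, which these lines hold, made up 36.6% to 40.1% of the total after DNMT3a siRNA and 41.3% to 42.5% in the other groups.

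Genes were kept by filterByExpr (minimum count 10, minimum total 15), which left 16561. All 9 libraries entered a robust quasi-likelihood fit by group in edgeR 4.0.16 (R 4.3.3) with TMM scaling and 6 residual degrees of freedom. The F tests were two-sided, with Benjamini-Hochberg adjustment over all 16561 genes and an adjusted p under 0.05 called. Unless another is named, each adjusted p is from this fit, and ± after a log2 fold change is its standard error. RPKM used GENCODE M21 exon lengths. The steps were run on simulated counts of independent libraries. These had no shared deviation by library number, so they cannot show how the fit performs where one is present. Alternatives used DESeq2 1.42.0, limma-voom 3.58.1, other scalings, other filters, only 2 groups, the replicate number as a block, and each library left out; leaving out the libraries numbered 2 was added after the data were seen.

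Same-numbered control and DNMT3a libraries deviated from their group means together (r = 0.434, 0.513 and 0.459 across genes). The main fit takes no account of this pairing, and the number entered as a block only in an alternative fit. The labels do not say whether libraries came from separate litters. The p-values therefore set a group difference against the spread of these samples only, a spread that is perhaps in part technical. Genes left out of the integrin and laminin set are not reported here. Genes and lists were chosen with earlier results of these data known. By rule, called chains and Itgb1, Itga5, Itga6, Itga7, Lama2, Lama4, Lamb1 and Lamc1 were given in full, and up to 4 called genes with the smallest adjusted p were named per partner list and comparison; single marker genes were named after their values were seen.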

Additional observations from a re-analysis of the deposited data

How the results depend on the processing

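The calls of Itgav (DNMT3a siRNA against control and against DNMT3b siRNA), of Itga9 (both knockdowns against control), and of Itga1 (between the knockdowns) held in all 18 alternatives. The other calls each lost significance in at least 1, as given above. For DNMT3a siRNA against control, the chains called numbered 6 with no filter, 10 by DESeq2, 11 with the replicate block and 5 without the libraries numbered 2, in place of 3. In that comparison 946 of all genes were called with only the 2 groups, 15 adaptors by DESeq2, and 13 ligands by DESeq2 and 12 with the replicate block. For DNMT3b siRNA against control, 1715 genes were called by DESeq2 and 1801 with the replicate block in place of 934. The adaptors called there numbered 6 with no filter, 7 by DESeq2 and 6 without the libraries numbered 2, and the ligands 9 with the replicate block and 8 without the libraries numbered 2. Between the knockdowns, the chains called numbered 11 by DESeq2 and 13 with the replicate block, all genes 2513 with the replicate block, adaptors 11 by DESeq2 and 11 with the block, and basement membrane genes 13 by both. The cause of these differences was not tested.

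Leaving out 1 library at a time gave 2 to 4 chains called for DNMT3a siRNA against control, 2 to 5 for DNMT3b siRNA against control (2 without control 1, DNMT3b 2 or DNMT3b 3) and 2 to 10 between the knockdowns (10 without control 2, 3 without DNMT3a 1, 2 without DNMT3b 2). All genes ran from 868 to 1839, 287 to 1781 and 524 to 1962 in the same order. The adaptors ran from 6 to 11, 2 to 6 and 2 to 9, the basement membrane genes from 8 to 10, 5 to 13 and 5 to 12, and the ligands from 5 to 10, 0 to 7 and 3 to 11.

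With DNMT3b libraries the numbers did not pair in every case (r = 0.212, 0.101 and 0.0334 with control, 0.161, 0.0776 and 0.0414 with DNMT3a), and control 2 correlated slightly better with DNMT3b 3 (0.105) than with DNMT3b 2. The replicate block added Itga5 to the chains called for DNMT3b siRNA against control (5 in all, adjusted p = 0.00143). Between the knockdowns it added Itga2b, Itga4, Itga5, Itga7, Itgb2, Lama4 and Lamc1.

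Signs turned only for log2 fold changes that were not called. For DNMT3a siRNA against control, Itgb1 became 0.0189 with library size alone, and with 1 library left out Itga5 ranged from -0.23 to 0.33, Itga6 from -0.0369 to 0.19 and Lama2 from -0.37 to 0.61. For DNMT3b siRNA against control, Itga7 became 0.000408 with library size alone, 0.00532 in limma-voom and 0.12 without the libraries numbered 2, Lama4 became 0.10 without the libraries numbered 2, and with 1 library left out Itga7 ranged from -0.21 to 0.20, Lama2 from -0.66 to 0.17 and Lama4 from -0.24 to 0.14. Counts of at most 47 per library limit Itga2, Itgb6, Itgal, Itgb2, Itgae, Itgb7 and Lama3, and 3 libraries a group limit all results.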
